A study of Homo sapiens with 18 samples.

Results

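The genes described here are 50 protein-coding genes that act in G2 phase and mitosis, the part of the cell cycle in which a cell that has copied its DNA enters mitosis, separates its chromosomes and divides. They were taken by symbol from a list that used no measured value of these samples but was chosen with earlier results of these data known. All 50 were found among the 17110 genes listed for HL-60 and the 17475 listed for MOLM-13. Their RNA was measured in 2 human acute myeloid leukaemia lines, the promyelocytic line HL-60 and the monocytic line MOLM-13, which carries a KMT2A fusion. Each line was grown in serum-containing RPMI1640 medium and exposed for 48 h, until day 2, to the solvent dimethyl sulfoxide (DMSO), to DAC or to NTX-301. DAC is decitabine, a deoxycytidine analogue built into DNA, where DNA methyltransferases become trapped on it. NTX-301, named here by its code, is an inhibitor of the DNA methyltransferase DNMT1. Each of the 6 groups held 3 samples, 18 in all, described as triplicate platings of cells. Nothing says that these were independent cultures, so p-values measure the spread between these samples, which may be technical. The stated concentrations were 30 nM in HL-60 cells and 15 nM in MOLM-13 cells, in wording that may cover both drugs or DAC alone. Dose therefore cannot be told apart from line, and whether the drugs were given at equal concentrations is not known. The question put to the data was how each drug left the mitotic programme of each line, and whether the drugs and the lines differed.

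CDK1 bound to cyclin A or B drives entry into mitosis, after CDC25 phosphatases, PLK1 and Aurora A switch it on. The spindle assembly checkpoint then holds the anaphase-promoting complex (APC/C) until kinetochores are attached to microtubules, and CDC20 starts anaphase by turning the APC/C on cyclin B and securin. Many of these genes are transcribed together late in the cycle under MYBL2, FOXM1 and the MuvB complex, and are held down by the DREAM complex outside it. MuvB binds a short promoter element called the cell cycle homology region (CHR), often placed downstream of CCAAT boxes bound by NF-Y.

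The promoters of 6 members are shown because they cover the range of these elements among genes that the results turn on. Each is the 130 bases before the annotated start, 5′ to 3′ on the gene's strand, from the RefSeq promoter table for GRCh38.p14. Capitals mark the CHR letters (TTTGAA, or its variant with the third base replaced, which reads TTCGAA, on either strand) and the CCAAT box (CCAAT or its reverse complement ATTGG). They lie at chr15:59105016-59105145, plus strand (CCNB2), chr16:23678759-23678888, plus strand (PLK1), chr1:154974551-154974680, plus strand (CKS1B), chr2:26785926-26786055, plus strand (CENPA), chr5:69167020-69167149, plus strand (CCNB1) and chr20:3786821-3786950, plus strand (CDC25B).
CCNB2: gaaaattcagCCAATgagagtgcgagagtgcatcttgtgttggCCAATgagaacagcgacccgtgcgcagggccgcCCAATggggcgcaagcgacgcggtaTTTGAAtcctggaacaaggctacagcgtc
PLK1: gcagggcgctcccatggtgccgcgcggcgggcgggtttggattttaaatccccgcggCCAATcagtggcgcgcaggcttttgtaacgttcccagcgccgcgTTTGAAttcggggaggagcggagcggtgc
CKS1B: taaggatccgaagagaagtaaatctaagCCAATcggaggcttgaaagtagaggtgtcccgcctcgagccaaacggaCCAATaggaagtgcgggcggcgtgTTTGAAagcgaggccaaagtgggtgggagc
CENPA: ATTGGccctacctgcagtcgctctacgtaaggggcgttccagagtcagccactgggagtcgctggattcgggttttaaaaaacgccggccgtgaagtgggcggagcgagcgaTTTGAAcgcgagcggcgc
CCNB1: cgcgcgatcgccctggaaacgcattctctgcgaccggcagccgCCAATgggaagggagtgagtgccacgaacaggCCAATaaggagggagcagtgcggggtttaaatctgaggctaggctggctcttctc
CDC25B: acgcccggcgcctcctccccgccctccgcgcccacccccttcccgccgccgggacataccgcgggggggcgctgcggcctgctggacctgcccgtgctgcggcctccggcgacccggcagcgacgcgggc

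CCNB2 and PLK1 both hold TTTGAA starting 29 bases before the start, CKS1B holds it at 30 and CENPA at 18. CCNB2 has 3 CCAAT boxes in this window, CKS1B and CCNB1 have 2 each, and PLK1 and CENPA have 1 each. CCNB1 holds neither TTTGAA nor TTCGAA in its window, but it holds tttaaa, which differs from TTTGAA in 1 base and was not searched. CDC25B holds neither element as searched in its window. The promoter table covered 42 of the 50 members. Over the 250 bases before to the 50 after the start, on both strands, CHR letters were found in 30 of the 42 promoters (71.43%), against 16.62% of all 27305 promoters in the table. In 18 of the 30, the nearest CHR letters started 1 to 40 bases before the start. The CCAAT box was found in 32 of 42 (76.19%, against 35.7% of all promoters), and both elements in 26 of 42 (61.9%, against 6.58%). E2F letters, taken as TT followed by any pair of C or G bases and then CGC, were found in 13 of 42 (30.95%, against 13.05% of all promoters). Among the 9922 promoters of genes listed for both lines the shares were 11.97% for CHR letters, 37.56% for the CCAAT box, 5.22% for both and 20.66% for E2F letters. In the 250 bases before the start alone, E2F letters were found in 10 members (23.81%, against 11.02%). The letters of different elements can overlap, as TTTGAATTGG holds both CHR letters and ATTGG, and a match is a description of the letters only.

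Values are the authors' normalized log2 values, one per gene and sample. They carry no gene length, so levels are compared between samples of one gene within a line and never between genes. All 50 members passed the filter on low values in both lines, and their mean log2 values ran from 9.07 (CDC25C) to 15.53 (TOP2A) in HL-60 and from 9.90 (SPC25) to 15.38 (TOP2A) in MOLM-13. The SD between replicates, as the median of the members, was 0.018 to 0.030 in HL-60 and 0.032 to 0.045 in MOLM-13. Read depth is unknown. In bulk RNA, fewer dividing cells and less of these RNAs per cell cannot be told apart.

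Markers of the lines and of other blood cells were read in the same fits, and some moved with the drugs. All 5 granulocyte precursor markers (MPO, ELANE, AZU1, PRTN3 and CTSG) were listed in both lines, and all 5 fell in HL-60 with NTX-301, with a median of -0.35. Under quantile normalization 4 of the 5 were called lower there. Over all genes tested, 19.2% were called lower in that comparison. PRTN3, a neutrophil granule protease, ran from 16.03 to 16.16 in DMSO, 16.08 to 16.16 with DAC and 15.28 to 15.33 with NTX-301, and the log2 sum of the 5 from 18.997 to 19.09, 18.991 to 18.994 and 18.62 to 18.65. With DAC 2 rose and 1 fell in HL-60. In MOLM-13 3 rose and 0 fell with DAC, and 2 rose and 1 fell with NTX-301, with a log2 sum of 17.61 to 17.67 in DMSO, 17.73 to 17.87 with DAC and 17.60 to 17.73 with NTX-301. Of 6 monocytic and KMT2A leukaemia markers (CSF1R, CD14, LYZ, HOXA9, MEIS1 and FLT3), CD14 had no row in either line and HOXA9 and MEIS1 had rows in MOLM-13 alone. In MOLM-13 2 rose and 3 fell with DAC, and 3 rose and 1 fell with NTX-301, and in HL-60 1 rose and 1 fell with each drug. LYZ, which encodes lysozyme, was higher in MOLM-13 by 0.78 ± 0.036 with DAC and 0.12 ± 0.036 with NTX-301, and CSF1R, a growth factor receptor of monocytes and macrophages, by 0.51 ± 0.047 and 0.39 ± 0.047. The markers that fell there with DAC were FLT3 (-0.29 ± 0.025), MEIS1 (-0.16 ± 0.032) and HOXA9 (-0.15 ± 0.053). With NTX-301 FLT3 fell (-0.21 ± 0.025), MEIS1 rose (0.11 ± 0.032) and HOXA9 was not called. The log2 sum of the list there was 17.06 to 17.14 in DMSO, 17.56 to 17.66 with DAC and 17.11 to 17.17 with NTX-301, and in HL-60 13.05 to 13.08, 13.15 to 13.23 and 12.97 to 13.04. Of 4 pan-myeloid markers (CD33, SPI1, CEBPA and ITGAM), ITGAM, an integrin of mature myeloid cells, rose in MOLM-13 with each drug, by 0.64 ± 0.036 and 0.71 ± 0.036, and in HL-60 with NTX-301, by 0.43 ± 0.047. In HL-60 0 of the 4 rose and 2 fell with DAC, and 1 rose and 2 fell with NTX-301, and in MOLM-13 2 rose with DAC, 1 rose with NTX-301 and 0 fell. The log2 sum of the 4 was 14.95 to 15.004 in DMSO, 14.80 to 14.84 with DAC and 14.82 to 14.85 with NTX-301 in HL-60, and 15.04 to 15.06, 15.12 to 15.14 and 15.05 to 15.13 in MOLM-13. Of 5 lymphoid markers CD79A alone had a row, in HL-60, at 6.42 to 6.44 in DMSO, 6.49 to 6.501 with DAC and 6.76 to 6.86 with NTX-301. Of 4 erythroid markers HBB and HBA1 had rows, in MOLM-13, where HBB was at 8.41 to 8.96 in DMSO, 8.17 to 8.78 with DAC and 8.70 to 9.30 with NTX-301. The part of these markers in the results was not tested.

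The 2 lines moved apart. In MOLM-13 both drugs lowered nearly the whole set: 49 of 50 members fell with DAC and 50 of 50 with NTX-301, at a Benjamini-Hochberg adjusted p under 0.05 in limma. In HL-60 the set was higher with the drugs: 18 members rose and 0 fell with DAC, and 44 rose and 1 fell with NTX-301. Over all genes tested, 21.2% were called lower with DAC in MOLM-13 and 24.8% with NTX-301. In HL-60, the shares called higher were 11.6% (DAC) and 18.3% (NTX-301), and those called lower 12.6% and 19.2%. In MOLM-13, 15.4% and 20.3% were called higher. Among genes at or above the level of the lowest member, the shares called lower in MOLM-13 were 39.4% and 45.6%. With the same kind of cut, those called higher in HL-60 were 13.9% and 19.8%. This cut is only a floor and does not match the members' levels. For HL-60 the lowest member had a mean log2 value of 9.07, while the median member was at 12.53. For MOLM-13 these values were 9.90 and 12.54. A background matched to the members' levels was not tested. The median log2 change of the 50 members in MOLM-13 was -0.29 with DAC and -0.33 with NTX-301, or -18.2% and -20.5%. In HL-60 it was 0.055 with DAC and 0.17 with NTX-301, or 3.88% and 12.9%. The median over all genes tested lay between 0.00064 and 0.0034 in these 4 comparisons. Both drugs were set against the same DMSO samples in each line. The changes were small in size: the furthest rise was that of SPC25 in HL-60 with NTX-301, at 0.51 on the log2 scale, and the furthest fall that of CCNB1 in MOLM-13 with NTX-301, at -0.50.

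**Figure D1:**
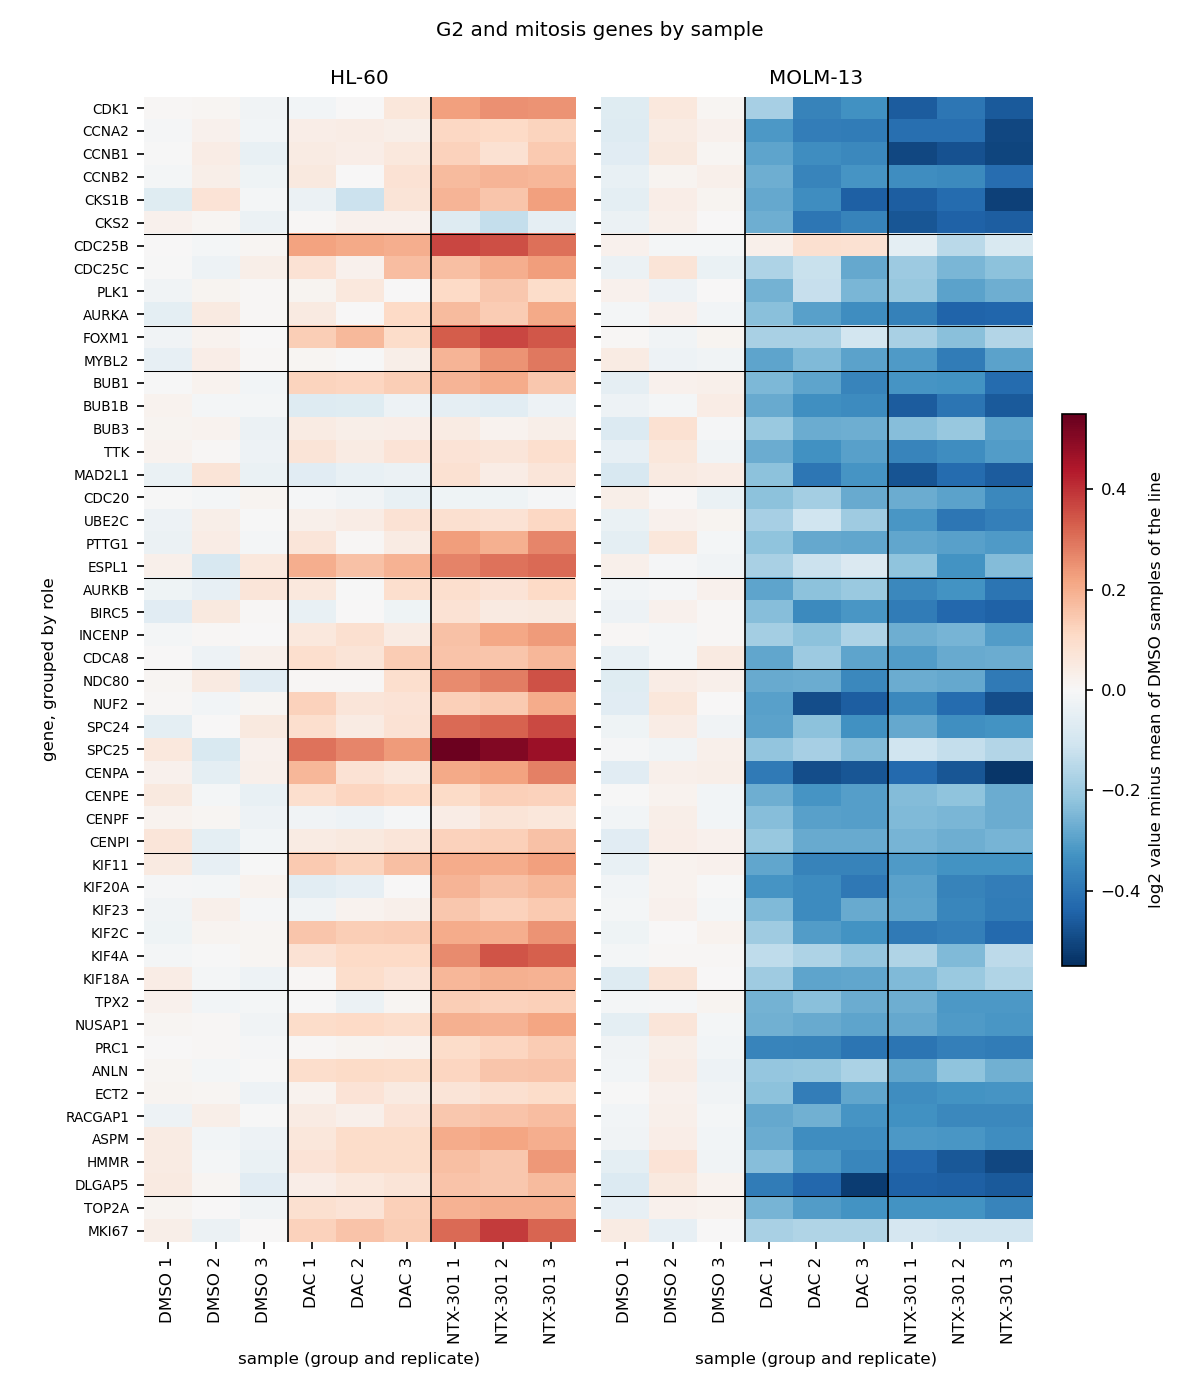
Log2 value of each of the 50 members (rows, grouped by role) in each of the 18 samples (columns), minus the member's mean in the DMSO samples of the same line. The drug samples of MOLM-13 lie below DMSO for nearly all members, while in HL-60 the NTX-301 samples lie above DMSO for 44 members called higher and the DAC samples are nearer to DMSO.

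The shift was present in each sample. Taken against the DMSO mean of each gene, the median over the members was 0.0016, 0.0071 and -0.0072 in the HL-60 DMSO samples, 0.051, 0.045 and 0.076 with DAC, and 0.16, 0.15 and 0.18 with NTX-301. These 3 groups did not overlap. In MOLM-13 the DMSO samples were at -0.029, 0.025 and 0.0025, the DAC samples at -0.25, -0.30 and -0.30, and the NTX-301 samples at -0.31, -0.33 and -0.35. Both drug groups lay far below DMSO, and the NTX-301 samples just below the DAC samples. The SD of these medians within groups was 0.014 in HL-60 and 0.025 in MOLM-13. Counted per sample, 40 to 45 members lay above their DMSO mean in the HL-60 DAC samples and 47 in each HL-60 NTX-301 sample. In each MOLM-13 DAC sample 49 lay below it, and in each NTX-301 sample all 50.

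**Figure D2:**
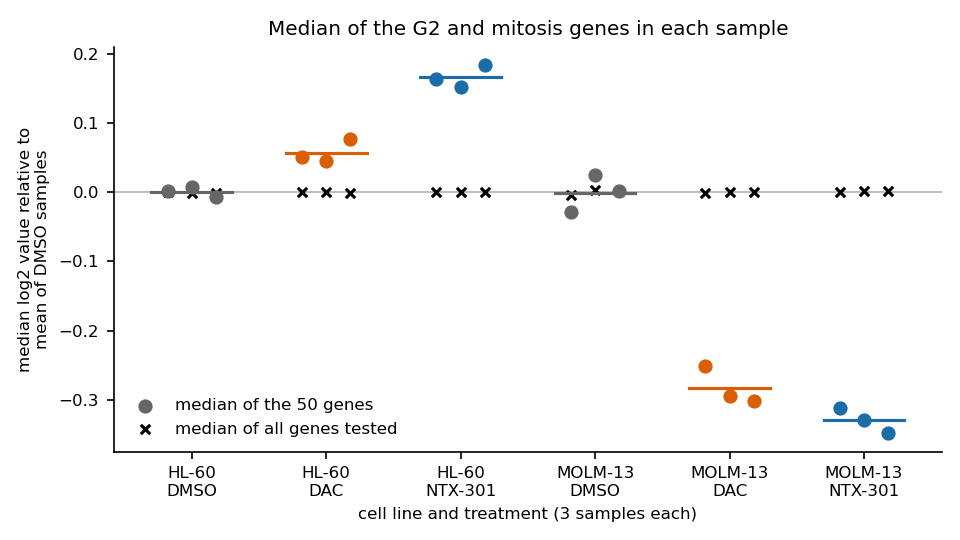
Median over the 50 members of the log2 value minus the member's mean in the DMSO samples of the same line (y axis), for each of the 3 samples of each group (points; the bar is the mean). The HL-60 NTX-301 samples sit between 0.15 and 0.18, and the MOLM-13 drug samples between -0.25 and -0.35.

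CDK1, its cyclins and its CKS subunits form the kinase that drives mitosis. All 6 members of this group (CDK1, CCNA2, CCNB1, CCNB2, CKS1B and CKS2) fell in MOLM-13 with each drug, with group medians of -0.34 (DAC) and -0.45 (NTX-301). In HL-60 none of the 6 was called with DAC, 5 rose with NTX-301 and CKS2 fell. CDK1 in HL-60 was at 12.90, 12.90 and 12.87 in the DMSO samples, 12.88, 12.89 and 12.95 with DAC and 13.12, 13.14 and 13.14 with NTX-301. The NTX-301 samples lay above all others and the other 2 groups overlapped, with a difference from DMSO of 0.24 ± 0.023 (adjusted p = 1.89e-06) on the log2 scale (SE, n = 3 per group). The DAC difference of 0.017 ± 0.023 did not pass, and its 95% interval ran from -0.033 to 0.066. In MOLM-13 CDK1 was at 13.20, 13.33 and 13.28 in the DMSO samples, 13.09, 12.91 and 12.94 with DAC and 12.82, 12.88 and 12.81 with NTX-301. Every drug sample lay below every DMSO sample, at -0.29 ± 0.046 (adjusted p = 4.16e-04) with DAC and -0.44 ± 0.046 (adjusted p = 1.69e-05) with NTX-301.

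CCNB1, the cyclin whose destruction ends mitosis, was the member that fell furthest in MOLM-13 with NTX-301. Its values there were 13.67, 13.79 and 13.74 in the DMSO samples, 13.44, 13.39 and 13.38 with DAC and 13.23, 13.25 and 13.23 with NTX-301. The 3 groups did not overlap and stood in that order, with differences from DMSO of -0.33 ± 0.030 (adjusted p = 1.15e-05) and -0.50 ± 0.030 (adjusted p = 4.90e-07), or -20.4% and -29.1%. In HL-60 CCNB1 was at 12.25, 12.29 and 12.21 in the DMSO samples, 12.30, 12.29 and 12.31 with DAC and 12.38, 12.33 and 12.39 with NTX-301. It rose there with NTX-301, by 0.12 ± 0.026 (adjusted p = 0.00229), and the DAC difference of 0.047 ± 0.026 was not called. CCNB2, a second B-type cyclin, was at 12.46, 12.51 and 12.45 in HL-60 with DMSO, 12.53, 12.47 and 12.55 with DAC and 12.65, 12.66 and 12.66 with NTX-301. The NTX-301 samples again lay apart from the overlapping DMSO and DAC samples, at 0.18 ± 0.025 (adjusted p = 5.17e-05). In MOLM-13 it was at 12.50, 12.56 and 12.57 in the DMSO samples, 12.27, 12.18 and 12.22 with DAC and 12.20, 12.19 and 12.12 with NTX-301. It fell by similar amounts with each drug, at -0.32 ± 0.032 and -0.37 ± 0.032.

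CKS2, a small subunit that docks CDK1 to its substrates, was the exception among the cyclin-CDK genes. In HL-60 it was at 12.32, 12.30 and 12.26 in the DMSO samples, 12.30, 12.32 and 12.32 with DAC and 12.22, 12.16 and 12.24 with NTX-301, so that the NTX-301 samples lay below the rest. This was the one call of a lower member in HL-60, at -0.085 ± 0.026 (adjusted p = 0.0182). It was lost under quantile normalization (adjusted p = 0.0972) and without DMSO replicate 1 (0.0637), DMSO replicate 2 (0.0583) or NTX-301 replicate 2 (0.1003). Its relative CKS1B moved the other way in HL-60 with NTX-301, at 0.19 ± 0.045 (adjusted p = 0.00454). CKS2 fell in MOLM-13 with both drugs, to 11.97, 11.84 and 11.87 and 11.77, 11.79 and 11.79 from 12.21, 12.27 and 12.24 in DMSO. CKS1B has 7 annotated pseudogenes of its name, so its values are uncertain where counting splits reads among copies. CCNA2, which pairs with CDK1 before the B cyclins do, fell by 0.36 and by 0.44 in MOLM-13 with DAC and NTX-301, and was at 0.11 ± 0.019 (adjusted p = 2.86e-04) in HL-60 with NTX-301.

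The activators of CDK1 moved less evenly. This group of 4 holds CDC25B and CDC25C, phosphatases that remove the inhibitory phosphates from CDK1, and the kinases PLK1 and AURKA. CDC25B was the only member not called lower with DAC in MOLM-13, and had the smallest fall with NTX-301. It was at 11.70, 11.66 and 11.67 in the DMSO samples, 11.70, 11.77 and 11.76 with DAC and 11.62, 11.53 and 11.59 with NTX-301 there. The DAC samples lay just above the highest DMSO sample and the NTX-301 samples below all others, with differences of 0.066 ± 0.031 (adjusted p = 0.123) and -0.097 ± 0.031 (adjusted p = 0.0251). The NTX-301 call was lost under quantile normalization, with a value of -0.036 and an adjusted p of 0.431, and without any one of 3 samples (DMSO replicate 1, adjusted p = 0.0743; DMSO replicate 3, 0.0508; NTX-301 replicate 2, 0.111). The DAC difference was called as a rise, at 0.11 (adjusted p = 0.0269), under quantile normalization. In HL-60 CDC25B was at 10.53, 10.52 and 10.54 in the DMSO samples, 10.75, 10.74 and 10.73 with DAC and 10.90, 10.88 and 10.84 with NTX-301. The 3 groups formed 3 separate steps, and the rises of 0.21 ± 0.027 (adjusted p = 7.87e-05) and 0.34 ± 0.027 (adjusted p = 2.84e-07) were among the 3 highest of the set with each drug.

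PLK1, which acts from mitotic entry to cytokinesis, was at 12.17, 12.12 and 12.15 in the DMSO samples, 11.89, 12.02 and 11.90 with DAC and 11.94, 11.85 and 11.88 with NTX-301 in MOLM-13. It fell with each drug, by 0.21 and 0.26 on the log2 scale (adjusted p = 0.00104 and 1.94e-04). In HL-60 it was at 11.98, 12.02 and 12.01 in the DMSO samples, 12.02, 12.06 and 12.004 with DAC and 12.11, 12.15 and 12.10 with NTX-301. The DMSO and DAC samples overlapped and the NTX-301 samples lay above them, at 0.12 ± 0.024 (adjusted p = 0.00141). AURKA, the Aurora kinase of centrosomes and spindle poles, was at 12.39, 12.49 and 12.45 in the DMSO samples, 12.49, 12.45 and 12.56 with DAC and 12.62, 12.59 and 12.65 with NTX-301 in HL-60. Its rise with NTX-301 was 0.17 ± 0.032 (adjusted p = 6.59e-04), while with DAC the samples overlapped those in DMSO. In MOLM-13 AURKA was at 12.78, 12.82 and 12.78 in the DMSO samples, 12.57, 12.49 and 12.45 with DAC and 12.42, 12.35 and 12.36 with NTX-301, and the 3 groups stood apart, at -0.29 ± 0.032 and -0.42 ± 0.032 against DMSO. CDC25C fell in MOLM-13 with both drugs, at -0.19 and -0.22, and rose in HL-60 with NTX-301, at 0.20.

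The 2 transcription factors of the set rose in HL-60 with NTX-301 and fell in MOLM-13 with both drugs. FOXM1, which binds promoters of the late cell cycle genes, was at 11.51, 11.55 and 11.53 in the DMSO samples, 11.66, 11.71 and 11.63 with DAC and 11.86, 11.90 and 11.87 with NTX-301 in HL-60. No groups overlapped, and the rises were 0.14 ± 0.026 (adjusted p = 0.00153) and 0.35 ± 0.026 (adjusted p = 1.65e-07), the latter the second highest of the 50 members. In MOLM-13 FOXM1 was at 11.49, 11.46 and 11.49 in the DMSO samples, 11.30, 11.30 and 11.38 with DAC and 11.30, 11.25 and 11.32 with NTX-301. Both drug groups lay below DMSO, at -0.15 ± 0.032 (adjusted p = 0.00275) and -0.19 ± 0.032 (adjusted p = 4.53e-04), and overlapped each other. MYBL2, which turns MuvB into an activator, was at 12.995, 13.08 and 13.05 in the DMSO samples, 13.05, 13.04 and 13.07 with DAC and 13.23, 13.29 and 13.33 with NTX-301 in HL-60. DAC left it within the DMSO range, at 0.014 ± 0.028, and NTX-301 raised it by 0.24 ± 0.028 (adjusted p = 1.01e-05). In MOLM-13 it was at 12.98, 12.91 and 12.92 in the DMSO samples, 12.65, 12.69 and 12.64 with DAC and 12.62, 12.55 and 12.64 with NTX-301, a fall of 0.28 with DAC and 0.33 with NTX-301.

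The spindle checkpoint had the lowest share of calls of any role in HL-60 with NTX-301, at 2 of 5. BUB1, BUB1B, BUB3, TTK and MAD2L1 build the signal that delays anaphase. In HL-60 BUB1 and TTK rose with each drug and the other 3 were not called with either, while all 5 fell in MOLM-13 with both drugs. BUB1B, which encodes BubR1, a part of the complex that inhibits CDC20, had the lowest change of the set in HL-60 with DAC. It was at 13.59, 13.56 and 13.56 in the DMSO samples, 13.50, 13.51 and 13.54 with DAC and 13.52, 13.52 and 13.55 with NTX-301 in HL-60. The DAC samples and the NTX-301 samples lay below the DMSO samples, but the differences of -0.057 ± 0.020 (adjusted p = 0.0551) and -0.044 ± 0.020 (adjusted p = 0.102) missed the threshold, and the first passed it under 3 of 17 other settings. In MOLM-13 BUB1B was at 13.40, 13.42 and 13.47 in the DMSO samples, 13.15, 13.09 and 13.08 with DAC and 12.97, 13.02 and 12.96 with NTX-301. The 3 groups were separate there, at -0.32 ± 0.029 and -0.44 ± 0.029. MAD2L1, which binds CDC20 directly, was at 12.63, 12.74 and 12.63 in the DMSO samples, 12.60, 12.62 and 12.63 with DAC and 12.75, 12.70 and 12.73 with NTX-301 in HL-60. One DMSO sample, replicate 2, reached the NTX-301 samples, and neither difference from DMSO was called, at -0.044 ± 0.028 (adjusted p = 0.292) and 0.064 ± 0.028 (adjusted p = 0.0946). In MOLM-13 MAD2L1 was at 13.22, 13.35 and 13.34 in the DMSO samples, 13.08, 12.90 and 12.98 with DAC and 12.83, 12.88 and 12.85 with NTX-301, a fall of 0.32 with DAC and 0.45 with NTX-301. BUB3, which ties the checkpoint proteins to kinetochores, differed from DMSO in HL-60 by 0.038 ± 0.020 and 0.032 ± 0.020, neither called.

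The anaphase genes are CDC20, the activator of the APC/C; UBE2C, the ubiquitin-conjugating enzyme that works with it; PTTG1, which encodes securin; and ESPL1, which encodes separase, the protease that securin inhibits. CDC20 had the narrowest range of the 50 members over the HL-60 samples. It was at 12.78, 12.77 and 12.79 in the DMSO samples, 12.77, 12.76 and 12.74 with DAC and 12.76, 12.76 and 12.77 with NTX-301 there. The 9 samples spanned 12.74 to 12.79, and the 95% intervals of the differences from DMSO were -0.064 to 0.021 with DAC and -0.061 to 0.025 with NTX-301. In MOLM-13 CDC20 was at 12.85, 12.83 and 12.79 in the DMSO samples, 12.60, 12.63 and 12.54 with DAC and 12.55, 12.53 and 12.47 with NTX-301. It fell with both drugs, at -0.23 ± 0.031 (adjusted p = 1.67e-04) and -0.31 ± 0.031 (adjusted p = 1.47e-05). ESPL1 was among the members that rose most in HL-60, at 12.01, 11.90 and 12.04 in the DMSO samples, 12.18, 12.15 and 12.17 with DAC and 12.26, 12.28 and 12.29 with NTX-301. The drug samples lay above all DMSO samples and apart from each other, at 0.18 ± 0.033 (adjusted p = 0.0011) and 0.29 ± 0.033 (adjusted p = 7.31e-06). In MOLM-13 ESPL1 was at 11.62, 11.58 and 11.57 in the DMSO samples, 11.41, 11.47 and 11.51 with DAC and 11.37, 11.26 and 11.35 with NTX-301. Its fall with DAC, -0.13 ± 0.036 (adjusted p = 0.0174), was the smallest of the 49 called. That call was lost under quantile normalization (-0.077, adjusted p = 0.153), without DMSO replicate 1 (adjusted p = 0.0555) and without DAC replicate 1 (0.0607). UBE2C fell in MOLM-13 by 0.16 with DAC and by 0.37 with NTX-301, and PTTG1 by 0.26 and 0.30. In HL-60 both rose with NTX-301, at 0.094 and 0.23, and neither was called with DAC. UBE2C has 5 annotated pseudogenes of its name and PTTG1 has 2, with the same uncertainty as for CKS1B.

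The chromosomal passenger complex corrects faulty attachments of chromosomes and later guides cytokinesis. It consists of Aurora B (AURKB), survivin (BIRC5), INCENP and borealin (CDCA8), and all 4 members fell in MOLM-13 with both drugs. AURKB was at 11.21, 11.21 and 11.25 in the DMSO samples, 10.93, 10.997 and 11.02 with DAC and 10.87, 10.89 and 10.82 with NTX-301 there. No groups overlapped, at -0.24 ± 0.033 (adjusted p = 1.94e-04) and -0.36 ± 0.033 (adjusted p = 7.40e-06). In HL-60 AURKB was at 10.46, 10.44 and 10.56 in the DMSO samples, 10.55, 10.49 and 10.58 with DAC and 10.58, 10.57 and 10.60 with NTX-301. The rise of 0.094 ± 0.035 (adjusted p = 0.0486) with NTX-301 just passed. It was lost under 11 of 17 other settings. These were centring (adjusted p = 0.135), no filter (0.0504), no variance trend (0.0597), only the groups compared (0.0523) and the stricter threshold of 0.01. The rest were the fits without DMSO replicate 1 or 2, DAC replicate 1 or any NTX-301 replicate (0.0621 to 0.176). CDCA8 rose with both drugs in HL-60, at 0.10 and 0.16, and INCENP with NTX-301, at 0.20. BIRC5 was not called in HL-60 with either drug, at -0.022 ± 0.028 and 0.062 ± 0.028.

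Centromere and kinetochore genes held the highest change of the set in HL-60 with each drug and the lowest in MOLM-13 with DAC. All 8 (NDC80, NUF2, SPC24, SPC25, CENPA, CENPE, CENPF and CENPI) rose in HL-60 with NTX-301 and fell in MOLM-13 with both drugs, and 3 rose in HL-60 with DAC. SPC25, one of the 4 subunits of the NDC80 complex that grips microtubules, had the highest change in HL-60. It was at 9.35, 9.21 and 9.32 in the DMSO samples, 9.59, 9.56 and 9.53 with DAC and 9.83, 9.81 and 9.76 with NTX-301 there. The groups rose in 3 separate steps, at 0.27 ± 0.040 (adjusted p = 2.81e-04) and 0.51 ± 0.040 (adjusted p = 2.91e-07), or 20.3% and 42.1%. In MOLM-13 SPC25 was at 10.01, 9.999 and 10.05 in the DMSO samples, 9.80, 9.83 and 9.78 with DAC and 9.91, 9.89 and 9.86 with NTX-301. Both drug groups lay below DMSO, at -0.21 ± 0.037 (adjusted p = 7.99e-04) and -0.13 ± 0.037 (adjusted p = 0.0107), and its fall with NTX-301 was among the 3 smallest. NUF2, a second subunit of that complex, was at 11.44, 11.41 and 11.44 in the DMSO samples, 11.56, 11.50 and 11.51 with DAC and 11.56, 11.57 and 11.63 with NTX-301 in HL-60 and rose with each drug, at 0.090 ± 0.027 and 0.16 ± 0.027, the first call lost without DMSO replicate 2 (adjusted p = 0.0844) or DAC replicate 1 (0.116). In MOLM-13 it was at 11.79, 11.92 and 11.85 in the DMSO samples, 11.55, 11.37 and 11.40 with DAC and 11.50, 11.43 and 11.37 with NTX-301. Its falls of 0.41 and 0.42 were of like size. The remaining subunits NDC80 and SPC24 were at 0.30 and 0.33 in HL-60 with NTX-301, and at -0.31 and -0.31 in MOLM-13.

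CENPA, the histone H3 variant that marks the centromere, had the deepest fall of the set in MOLM-13 with DAC. It was at 11.02, 11.11 and 11.11 in the DMSO samples, 10.69, 10.59 and 10.61 with DAC and 10.65, 10.61 and 10.55 with NTX-301 there. The drug groups lay well below DMSO and overlapped each other, at -0.45 ± 0.041 (adjusted p = 1.26e-05) and -0.48 ± 0.041 (adjusted p = 4.72e-06), or -26.7% and -28.2%. In HL-60 CENPA was at 10.56, 10.48 and 10.56 in the DMSO samples, 10.72, 10.61 and 10.59 with DAC and 10.74, 10.76 and 10.81 with NTX-301. It rose with NTX-301, at 0.24 ± 0.037 (adjusted p = 1.77e-04), and the DAC difference of 0.11 ± 0.037 (adjusted p = 0.053) passed under 4 of 17 other settings. CENPE, the kinesin that carries chromosomes to the spindle middle, was at 0.11 and 0.12 in HL-60 and at -0.30 and -0.24 in MOLM-13. CENPF, a kinetochore protein made in G2, was at 0.057 ± 0.018 (adjusted p = 0.0227) in HL-60 with NTX-301, the smallest rise called in the set there.

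The 6 kinesins (KIF11, KIF18A, KIF20A, KIF23, KIF2C and KIF4A) are motors of the spindle and the midzone. All rose with NTX-301 in HL-60, by 0.14 to 0.31, and all fell in MOLM-13 with both drugs. KIF20A, which acts in cytokinesis, was at 11.10, 11.10 and 11.13 in the DMSO samples, 11.05, 11.06 and 11.11 with DAC and 11.30, 11.27 and 11.29 with NTX-301 in HL-60. It stayed within or below the DMSO range with DAC, at -0.033 ± 0.026, and rose with NTX-301, at 0.18 ± 0.026 (adjusted p = 9.48e-05). In MOLM-13 KIF20A was at 12.54, 12.57 and 12.55 in the DMSO samples, 12.22, 12.21 and 12.16 with DAC and 12.26, 12.18 and 12.17 with NTX-301. Both drugs lowered it by the same amount to 2 digits, at -0.35 and -0.35. KIF11, the motor that separates the spindle poles, rose with each drug in HL-60, at 0.14 and 0.21, and fell in MOLM-13, at -0.34 and -0.32. KIF4A, a chromosome-bound motor, had the highest kinesin change in HL-60 with NTX-301, at 0.31 ± 0.025 (adjusted p = 4.03e-07), and the smallest kinesin falls in MOLM-13, at -0.17 and -0.18.

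Of 9 genes for spindle assembly and cytokinesis (TPX2, NUSAP1, PRC1, ANLN, ECT2, RACGAP1, ASPM, HMMR and DLGAP5), all rose in HL-60 with NTX-301 and all fell in MOLM-13 with both drugs. DLGAP5, which stabilizes microtubules near chromosomes, was at 12.88, 13.01 and 12.97 in the DMSO samples, 12.57, 12.52 and 12.43 with DAC and 12.51, 12.50 and 12.49 with NTX-301 in MOLM-13. Its falls of -0.45 ± 0.038 (adjusted p = 8.11e-06) and -0.45 ± 0.038 (adjusted p = 4.17e-06) left the drug groups overlapping. In HL-60 DLGAP5 was at 12.51, 12.48 and 12.40 in the DMSO samples, 12.50, 12.52 and 12.53 with DAC and 12.62, 12.61 and 12.64 with NTX-301, with a rise of 0.16 with NTX-301. HMMR, a spindle pole protein also known as a hyaluronan receptor, was at 12.71, 12.84 and 12.75 in the DMSO samples, 12.53, 12.45 and 12.40 with DAC and 12.33, 12.30 and 12.26 with NTX-301 in MOLM-13. Here the 3 groups were separate, at -0.30 ± 0.040 and -0.47 ± 0.040. In HL-60 HMMR was at 12.42, 12.36 and 12.33 in the DMSO samples, 12.45, 12.47 and 12.47 with DAC and 12.54, 12.52 and 12.61 with NTX-301. Its rise with DAC, 0.092 ± 0.028 (adjusted p = 0.0275), was lost without DMSO replicate 2 or 3 or DAC replicate 2 or 3 (adjusted p of 0.0708 to 0.104), and that with NTX-301 was 0.18 ± 0.028 (adjusted p = 1.19e-04). PRC1, which bundles the microtubules of the midzone, had the smallest SE of the set in MOLM-13, at -0.38 ± 0.023 and -0.39 ± 0.023. HMMR, PRC1 and KIF23 each overlap an annotated antisense gene, and whether strand was used in counting is not stated.

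The last 2 members act on mitotic chromatin. TOP2A, the topoisomerase that untangles sister chromatids, was at 15.44, 15.43 and 15.41 in the DMSO samples, 15.52, 15.50 and 15.56 with DAC and 15.62, 15.63 and 15.63 with NTX-301 in HL-60. It rose in 2 steps, at 0.098 ± 0.019 (adjusted p = 0.00177) and 0.20 ± 0.019 (adjusted p = 1.63e-06). In MOLM-13 TOP2A was at 15.54, 15.61 and 15.61 in the DMSO samples, 15.33, 15.28 and 15.26 with DAC and 15.26, 15.26 and 15.22 with NTX-301. Both drug groups lay below DMSO, at -0.30 ± 0.028 and -0.34 ± 0.028. MKI67, the proliferation marker that coats mitotic chromosomes, was at 14.93, 14.87 and 14.91 in the DMSO samples, 15.03, 15.06 and 15.04 with DAC and 15.21, 15.29 and 15.22 with NTX-301 in HL-60. The groups did not overlap, and the rises were 0.14 ± 0.023 (adjusted p = 5.55e-04) and 0.34 ± 0.023 (adjusted p = 6.56e-08). In MOLM-13 MKI67 was at 15.10, 15.01 and 15.06 in the DMSO samples, 14.88, 14.90 and 14.89 with DAC and 14.97, 14.95 and 14.96 with NTX-301. It fell with DAC, at -0.17 ± 0.025 (adjusted p = 2.54e-04), and by less with NTX-301, at -0.10 ± 0.025 (adjusted p = 0.00583). Under quantile normalization the NTX-301 difference of MKI67 turned to 0.023 with an adjusted p of 0.466, so its direction in MOLM-13 with NTX-301 depends on the scaling. The 2 drug groups of MKI67 did not overlap, but their difference of 0.070 ± 0.025 was not called (adjusted p = 0.113).

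**Figure D3:**
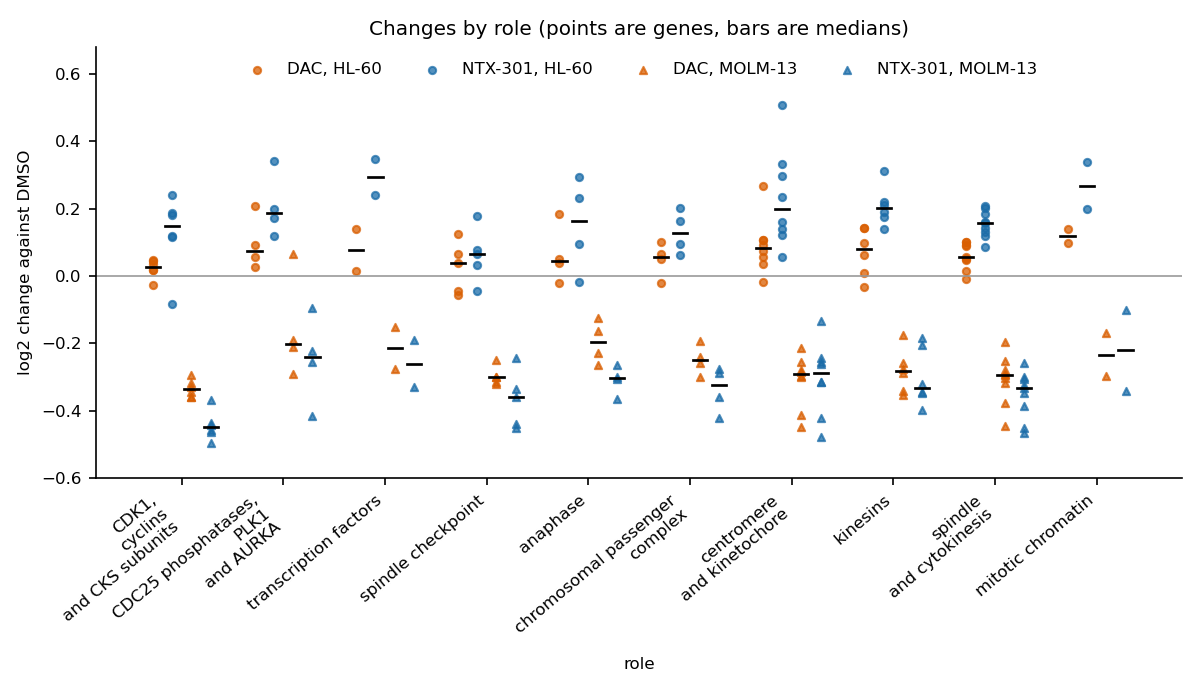
Log2 change against DMSO of the 50 members (points, one per member; the bar is the group median) by role, for each drug and line. In MOLM-13 the role medians lie between -0.20 and -0.45, and in HL-60 with NTX-301 between 0.064 for the spindle checkpoint and 0.29 for the 2 transcription factors.

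The drugs were then set against each other within a line. In HL-60 NTX-301 left the set above DAC: 35 of 50 members were higher, 1 was lower and 14 were not called, with a median log2 difference of 0.10. Of all genes tested, 15.4% were called higher and 15.0% lower. NDC80 and SPC24 had the highest differences, at 0.26 ± 0.034 (adjusted p = 5.23e-05) and 0.26 ± 0.030 (adjusted p = 1.82e-05), followed by SPC25 at 0.24, MYBL2 at 0.23 and CDK1 at 0.22. All 6 kinesins and both transcription factors were higher with NTX-301. The single lower member was CKS2, at -0.10 ± 0.026 (adjusted p = 0.00771). CDC20 and BUB3 did not differ detectably, with 95% intervals of -0.039 to 0.046 and -0.049 to 0.038. CCNB1 missed the threshold at 0.070 ± 0.026 (adjusted p = 0.053) and passed it under 6 of 17 other settings.

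In MOLM-13 the drugs lay close together. With NTX-301, 9 members were lower than with DAC, 0 were higher and 41 were not called, with a median log2 difference of -0.045. Of all genes tested, 4.41% were called lower and 3.01% higher. The 9 were UBE2C (-0.20), CCNB1 (-0.17), CDC25B (-0.16), HMMR (-0.16), ESPL1 (-0.14), AURKA (-0.13), KIF2C (-0.12), BIRC5 (-0.12) and BUB1B (-0.12). The lowest adjusted p among them were 0.00555 for UBE2C and 0.00826 for CCNB1. The count rests on single samples: it was 3 without NTX-301 replicate 2 or without NTX-301 replicate 3, and 5 without DAC replicate 1 or without DMSO replicate 3. It was 3 with no trend in the variance and 5 when the DMSO samples were left out of the fit. For the 41 not called the intervals are wide enough to hold modest differences, as for CDK1 (-0.24 to -0.044), TOP2A (-0.10 to 0.016) and CENPA (-0.12 to 0.062). One pair of compounds was compared in each line, with p adjusted over all genes in that line.

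**Figure D4:**
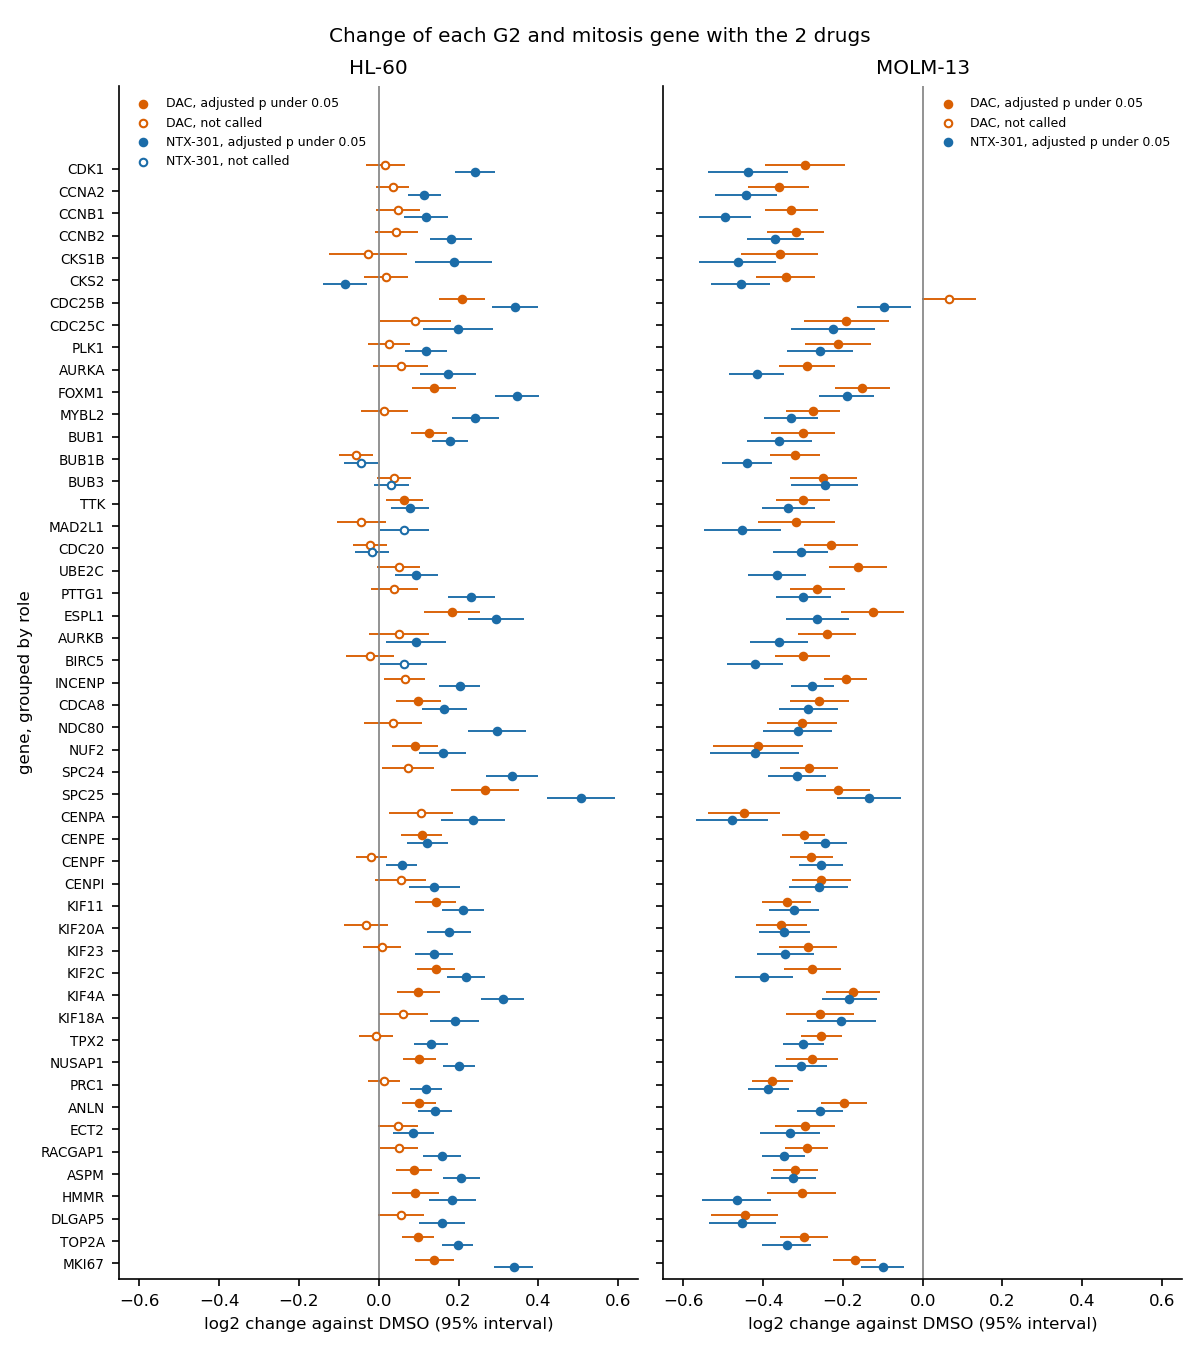
Log2 change against DMSO with DAC and with NTX-301 for each of the 50 members in HL-60 and in MOLM-13. The changes with the 2 drugs share the DMSO samples, so their likeness is not a result. In HL-60 the change with NTX-301 lies above that with DAC for 48 of the 50 members. In MOLM-13 it lies below that with DAC for 42 and above it for 8.

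Whether each drug's effect differed between the lines was tested by subtracting the HL-60 effect from the MOLM-13 effect in one fit of the 18 samples. All 50 members were called lower for DAC, where 17.9% of all genes tested were, and all 50 for NTX-301, where 22.4% were. Among genes at or above the level of the lowest member the shares were 29.3% and 34.9%. All 28 genes of a G1 and S phase list, which are not members, were also called lower for each drug, with medians of -0.32 and -0.48. The median difference over the members was -0.33 for DAC and -0.51 for NTX-301, against -0.0044 and -0.0041 over all genes tested. The widest differences for DAC were those of CENPA (-0.55 ± 0.058), DLGAP5 (-0.50 ± 0.049) and NUF2 (-0.50 ± 0.061). For NTX-301 they were those of CENPA (-0.71 ± 0.058), CDK1 (-0.68 ± 0.054) and CKS1B (-0.65 ± 0.069). The narrowest was CDC25B for DAC, at -0.14 ± 0.039 (adjusted p = 0.00949), and BUB3 for NTX-301, at -0.28 ± 0.045 (adjusted p = 7.12e-05). With quantile normalization 49 of 50 were called lower for DAC, and CDC25B was not (adjusted p = 0.0707). BUB1B, which had no called change in HL-60, differed between the lines by -0.26 and -0.40, and CKS2, which fell in both lines with NTX-301, by -0.37. The set was called lower as a whole, 50 of 50 members for each drug, in all 18 fits that left out 1 sample. The stated concentration in HL-60 was higher than in MOLM-13, and dose and line cannot be told apart here.

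The direction of calls over all genes depends on how samples are scaled, and this was checked for the set. With each sample centred on its own median, genes called with NTX-301 in HL-60 split into 2310 higher and 5400 lower, from 3115 and 3265, and those of NTX-301 against DAC in HL-60 into 1818 and 4860, from 2622 and 2563. In MOLM-13 the split went from 2689 higher and 3705 lower to 1960 and 5731 with DAC, and from 3543 and 4337 to 2735 and 5760 with NTX-301. For the difference between lines with DAC it went from 1871 higher and 2767 lower to 1359 and 4382 with centring, and to 2006 and 2172 with quantile normalization. With centring 39 members rose in HL-60 with NTX-301 and 49 and 50 fell in MOLM-13 with DAC and NTX-301, from 44, 49 and 50, and 25 were higher with NTX-301 than with DAC in HL-60, from 35. With quantile normalization the 4 counts were 47, 48, 48 and 39, and MKI67 and CDC25B were the members not called lower in MOLM-13 with NTX-301.

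Other genes of the same machinery, on lists of the pathway's further members, were counted in the same fits. Over all genes tested in HL-60, 11.6% were called higher and 12.6% lower with DAC, and 18.3% and 19.2% with NTX-301. In MOLM-13, 21.2% were called lower with DAC and 24.8% with NTX-301, or 39.4% and 45.6% of genes at or above the level of the lowest member. Of 27 other spindle and centrosome genes tested in HL-60, 14 rose and 1 fell with DAC, and 25 rose and 0 fell with NTX-301. In MOLM-13, 22 and 24 of 28 fell and 0 rose. KIF14, a kinesin of cytokinesis, fell by 0.34 and 0.42, and PLK4, the kinase that starts centriole copying, by 0.30 and 0.39. Of 30 other kinetochore genes, 17 rose and 2 fell in HL-60 with NTX-301, and 26 and 28 fell in MOLM-13 with DAC and NTX-301. HJURP, the chaperone that loads the centromeric histone, was higher in HL-60 with NTX-301, at 0.33, and KNL1, the scaffold for the checkpoint proteins, fell in MOLM-13 by 0.32 and 0.36. Of 22 cohesin and condensin genes, 13 rose and 3 fell in HL-60 with NTX-301, and 20 and 19 fell in MOLM-13. The condensin subunit NCAPG was at 0.33 in HL-60 with NTX-301 and at -0.27 in MOLM-13 with DAC.

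The list of APC/C genes holds 14 subunits, the coactivator FZR1 and the ubiquitin-conjugating enzyme UBE2S. Of these 16, 4 rose and 3 fell in HL-60 with NTX-301, shares near the 18.3% and 19.2% of all genes tested, with a median of 0.0019 that turned to -0.026 with centring and 0.037 with quantile normalization. In MOLM-13, 9 fell with DAC and 12 with NTX-301, with medians of -0.14 and -0.16. Of all genes at or above the level of the lowest member, 39.4% and 45.6% were called lower in MOLM-13. Whether small lists such as these differ from that background was not tested. Of 11 subunits of the DREAM and MuvB complexes, 4 rose and 1 fell in HL-60 with NTX-301, and 7 fell in MOLM-13 with each drug. The pocket protein gene RBL1 was at -0.24 and -0.32 there. Of 28 genes of G1 and S phase, which are not members, 17 rose in HL-60 with NTX-301 and 25 and 26 fell in MOLM-13 with DAC and NTX-301, with medians of 0.10, -0.29 and -0.38.

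**Figure D5:**
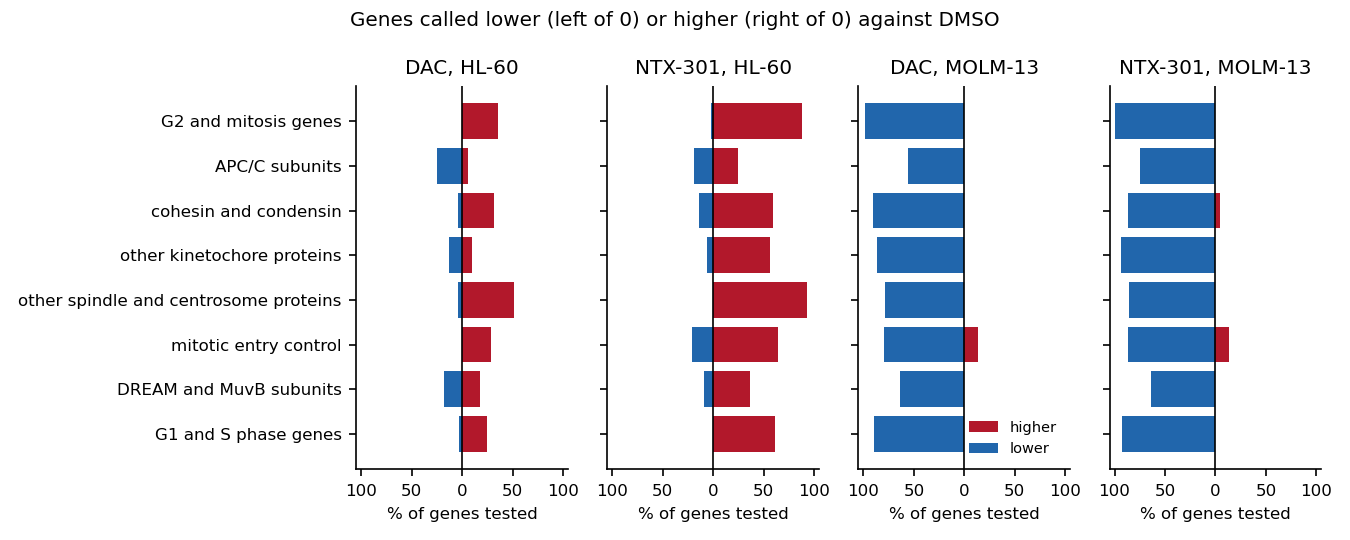
Percent of genes tested that were called higher (right of 0) and lower (left of 0) in the 50 members and in each of 7 further lists, for each drug against DMSO in each line. The MOLM-13 panels lie almost wholly to the left, and the HL-60 NTX-301 panel mostly to the right, where 4 APC/C genes were called higher and 3 lower.

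Of 15 genes that control mitotic entry, 14 were tested in HL-60, where 4 rose and 0 fell with DAC and 9 rose and 3 fell with NTX-301. Those that fell were ARPP19 (-0.13 ± 0.022) and ENSA (-0.10 ± 0.019), which encode inhibitors of the phosphatase that opposes CDK1, and GADD45A (-0.20 ± 0.047), a stress response gene. In MOLM-13 12 fell with DAC and 13 with NTX-301, and 2 rose with each, GADD45A (by 0.37 and 0.44) and CDKN1A. WEE1 and PKMYT1 are the kinases that put the inhibitory phosphates on CDK1. WEE1 was not called in HL-60, at 0.047 ± 0.020 and 0.0056 ± 0.020, and fell in MOLM-13, at -0.16 ± 0.028 (adjusted p = 7.17e-04) and -0.25 ± 0.028 (adjusted p = 2.87e-05). PKMYT1 rose in HL-60 with both drugs, at 0.14 and 0.18, and fell in MOLM-13 with NTX-301, at -0.25 ± 0.046 (adjusted p = 7.74e-04). CDC25A, the phosphatase that acts earliest in the cycle, rose in HL-60 by 0.12 and 0.14 and fell in MOLM-13 by 0.38 and 0.54. CDKN1A, which encodes the CDK inhibitor p21, had no row in the HL-60 tables used here. In MOLM-13 it was at 13.31, 13.26 and 13.25 in the DMSO samples, 14.19, 14.16 and 14.16 with DAC and 14.40, 14.29 and 14.34 with NTX-301. It rose with both drugs, at 0.89 ± 0.029 (adjusted p = 2.87e-08) and 1.07 ± 0.029 (adjusted p = 3.64e-09).

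The members' changes were also set beside their promoter letters, as a description with no test of the differences. In MOLM-13 the medians of the 30 members with CHR letters were -0.297 (DAC) and -0.328 (NTX-301), and those of the 12 without were -0.276 and -0.323. In HL-60 with NTX-301 the medians were 0.183 and 0.187. Split by the CCAAT box, the medians in MOLM-13 with NTX-301 were -0.337 for the 32 members with it and -0.287 for the 10 without, and split by E2F letters -0.332 for 13 and -0.322 for 29. In HL-60 with DAC the medians were 0.053 and 0.091 for the CCAAT box and 0.089 and 0.051 for E2F letters. Only TTTGAA and TTCGAA were searched, so members counted as without CHR letters may hold another form of the element. CCNB1, with neither TTTGAA nor TTCGAA, had the deepest fall with NTX-301 in MOLM-13. CDC25B, with neither element as searched in the sequence shown, had the smallest. Among 541 other tested genes with both CHR letters and a CCAAT box, the median in MOLM-13 with DAC was -0.045, against -0.011 for those without both. The gap was not particular to these elements. Split by E2F letters, the other genes were at -0.049 with them and -0.0038 without. Split by CHR letters, whatever the CCAAT box, they were at -0.017 and -0.011 with DAC, and at -0.0082 and -0.015 with NTX-301.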

How the data were processed

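RNA of HL-60 and MOLM-13 cells was measured by stranded total RNA sequencing, per the labels' protocols. The authors deposited 1 file per sample with a normalized log2 value per gene; the log2 unit is read from the values, and the normalization, the counting and the use of strand are not given in the sources used here. Per the submitters' processing notes, FastQC, Trimmomatic 0.38, HISAT2, StringTie and hg19 were named, with no roles. The tables of the lines list different genes, and whether the lines were normalized together is not given, so levels are not compared between them. No coordinates of the files' build are printed.

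Group differences came from limma 3.58.1 under R 4.3.3, by lmFit and then eBayes allowing a variance trend (two-sided), on the 9 samples of a line, with 6 residual degrees of freedom, and on all 18 for the difference between lines. Genes entered where 3 or more samples had a linear value of 1 or higher (17046, 17475 and 15474 genes), and p was adjusted by Benjamini-Hochberg over them, with a threshold of 0.05. Errors are SE of limma and intervals are 95%. On simulated data limma recovered 97.5% of 200 changed genes among 17046 for DAC in HL-60, and 92.5% of those changed by 0.25. For DAC in MOLM-13 it recovered 89.5% among 17475, and 68.3% at 0.25, with 5 and 13 false calls. The smallest change simulated was 0.25. Recovery of smaller changes, such as the members' medians of 0.055 (DAC) and 0.17 (NTX-301) in HL-60, was not measured.

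The members and the further lists were chosen with earlier results of these data known, so no list was tested and none is independent support. Values in every sample are given for CDK1, CCNB1, CCNB2, CDC20, PLK1, AURKA, AURKB, FOXM1, MYBL2, TOP2A, MKI67 and the 3 members with the lowest and the 3 with the highest change in each drug-against-DMSO comparison. Of other genes, CDKN1A, WEE1, PKMYT1, CDC25A and a selection of the 2 with the lowest adjusted p per list and comparison are named; another gene the rule would name is not reported here. Alternatives covered the filter, centring, quantile normalization, the variance trend, the samples fitted, a replicate block, a stricter threshold and leaving out each sample. Motifs were counted in the RefSeq promoter table for GRCh38.p14.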

Additional observations from a re-analysis of the deposited data

Results flagged for a closer look

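What flagged the members is that their response to each drug was not the same in the 2 lines, tested directly as a difference of differences. For DAC, 50 of 50 members were called lower in MOLM-13 than in HL-60 (median difference of -0.33 on the log2 scale), where 17.9% of all genes tested were, and 29.3% of those at or above the level of the lowest member. For NTX-301, 50 of 50 were called lower in MOLM-13 than in HL-60 (median difference of -0.51), where 22.4% and 34.9% were. The difference was not particular to the members. All 28 genes of G1 and S phase were called lower for each drug, with medians of -0.32 and -0.48. Of 27 other spindle and centrosome genes, 24 were lower for DAC and 27 for NTX-301, and of 16 APC/C genes 5 and 10. The stated dose goes with the line and cannot be told apart from it.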

How the results depend on the processing

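Read depth is unknown, and precision rests on 3 samples per group. The median change of the members moved with the scaling. With samples centred on their median it was 0.147 (NTX-301, HL-60), 0.0759 (NTX-301 against DAC, HL-60), -0.326 (DAC, MOLM-13), -0.362 (NTX-301, MOLM-13) and -0.365 (difference between lines, DAC). With quantile normalization the same 5 were 0.201, 0.122, -0.214, -0.246 and -0.281, and the difference between lines for NTX-301 was -0.446. Without 1 sample the HL-60 median with NTX-301 ran from 0.157 to 0.177.

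The count of members lower in HL-60 with DAC, 0 as reported, was 1 with no variance trend, 1 at a mean log2 value of at least 5, and 0 to 1 without 1 sample. That with NTX-301, 1 as reported, was 2 with centring, 0 with quantile normalization, 0 at an adjusted p under 0.01 and 0 to 1 without 1 sample. In MOLM-13 quantile normalization called 1 member higher with DAC and 2 higher with NTX-301 against DAC, from 0 each. Members lower with NTX-301 than DAC there, 9 as reported, were 3 with no variance trend, 5 with only the groups compared, 2 at an adjusted p under 0.01 and 3 to 8 without 1 sample. The cause of these shifts was not tested.

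Whether replicate numbers shared across groups pair the samples is not known, and the main fits did not pair them. Correlations of same-numbered deviations ran from -0.057 to 0.12 in HL-60 and from -0.16 to 0.11 in MOLM-13, with 1 of 9 pairs over 0.1 in each. In HL-60 6 of 9 samples correlated best with their own number, and in MOLM-13 1 of 9. With the replicate block 17 members rose with DAC in HL-60, against 18, and 5 were lower with NTX-301 than DAC in MOLM-13, against 9.

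Of the settings tried on single members, 3256 values kept direction and side of the threshold, 88 lost the call, 27 gained it and 17 turned direction. One of the 17 had been called, MKI67 in MOLM-13 with NTX-301 (0.023 with quantile normalization). The others were near 0. In HL-60 they were CDC20 with NTX-301 (0.022 with quantile normalization), and, for NTX-301 against DAC with centring, BUB1B (-0.017) and CDC20 (-0.025). Without 1 sample, CDC20 ran from -0.0053 to 0.011 there, and the DAC difference ran from -0.0082 to 0.032 for MYBL2 and from -0.0066 to 0.032 for CDK1. For NTX-301 against DAC in MOLM-13, DLGAP5 was at 0.00054 with centring and 0.0018 with quantile normalization, and NUF2 at 0.0049 with quantile normalization. Without 1 sample the ranges there were -0.043 to 0.025 for DLGAP5, -0.045 to 0.049 for NUF2, -0.054 to 0.0014 for CENPA and -0.019 to 0.023 for KIF20A.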

Other observations

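Cell cycle genes outside the set, of these and other stages, also moved, some further than any member. MELK, a kinase gene of the late cell cycle, rose in HL-60 by 0.21 ± 0.026 with DAC and by 0.41 ± 0.026 with NTX-301. E2F2, a transcription factor gene of G1 and S phase, was higher with NTX-301 than with DMSO in HL-60, at 0.76 ± 0.041 (adjusted p = 7.00e-09), above every member. PBK, a mitotic kinase gene, rose there by 0.31 ± 0.033 with NTX-301. In MOLM-13 PBK fell by 0.52 with DAC and by 0.59 with NTX-301, below every member in each comparison. The replication helicase genes MCM2 and MCM6 fell there with NTX-301 by 0.48 and 0.49. MAD1L1, which anchors MAD2 at kinetochores, was lower in HL-60 with DAC at -0.27 ± 0.035 (adjusted p = 7.96e-05), while SKA1, a kinetochore gene, was higher at 0.24 ± 0.028 (adjusted p = 3.68e-05).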
